A study of Homo sapiens with 3 samples.

Results

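CLDN2, LHFPL3 and PIGF, called the lowered genes here, had 0, 4 and 12 counts in the siPRMT6-2 library of HEC1B cells. They are described with RIPPLY1 and RHOQ, which lie on the opposite strand next to CLDN2 and PIGF. These are 5 of the 26485 genes in the count table. The first 3 were chosen because they were at least 4-fold lower with siPRMT6-2 than with siNC, on a log2 CPM scale with a prior count of 2, with 30 or more counts in the higher of these libraries, and not so lowered with siPRMT6-1. With a minimum of 10 counts, 22 of 6361 tested genes were at least 4-fold lower with siPRMT6-2 than with siNC. RIPPLY1 and RHOQ were chosen by position alone. HEC1B is an established human endometrial cancer cell line. The 3 libraries were siPRMT6-2 and siPRMT6-1, a pair of siRNAs against the arginine methyltransferase gene PRMT6 with the genotype label PRMT6 knockdown, and siNC, the control siRNA with the genotype label WT. Each was made from 10 ng of total RNA at 48 h. Each siRNA has 1 library, so no value below has a replicate of its own siRNA, and nothing in the labels tells whether the libraries came from separate cultures.

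The 3 libraries held between 362080 and 410916 counts. A 95% interval follows each value, Poisson-based for counts and binomial for ratios of CPM (counts scaled to TMM library sizes). Both kinds are exact and cover counting error only. In bulk RNA fewer cells of a kind and less RNA per cell cannot be told apart. PRMT6 had 7 counts in siPRMT6-2, 4 in siPRMT6-1 and 25 in siNC. The library labelled siPRMT6-2 also stood apart in interferon-stimulated genes, whose summed counts over 51 listed genes were 3580 in siPRMT6-2, 435 in siPRMT6-1 and 335 in siNC. Whether this bears on the genes described here was not tested. Among markers of the labelled cell type KRT8 (681 to 1329 counts), KRT18 (85 to 129) and PAX8 (117 to 227) were present. EPCAM (4 to 5 counts), KRT7 (1 to 4), MUC1 (0 to 4) and ESR1 (0 to 1) had few counts. KRT19, CDH1, SOX17 and PGR were at 0 in all 3 libraries. PTPRC, CD3E and CD14, which mark leukocytes, were at 0 too, as were DCN and LUM of fibroblasts and CDH5 of endothelium. COL1A1, also listed for fibroblasts, had 370 counts in siPRMT6-2, 354 in siPRMT6-1 and 515 in siNC. PECAM1 had 5 counts in siPRMT6-2, 16 in siPRMT6-1 and 19 in siNC, and PDGFRB 2, 6 and 16 in this order; their part in the results was not tested.

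The gene names are those of the table, and the strand of the counts limits what they mean. Per the file headers a strand setting of 1 was used with a stranded kit, yet VIM-AS1 had 14307 counts in siPRMT6-2, 9718 in siPRMT6-1 and 12493 in siNC, where VIM, an abundant mRNA of mesenchymal-like cells, had 392, 291 and 312. Should the setting be the opposite of the kit's, a count named for a gene would come from the other strand of its exons. The files cannot tell these readings apart, and genes that overlap on opposite strands, among them PIGF and RHOQ, are uncertain for that reason.

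The 3 lowered genes belong to unrelated processes. CLDN2 encodes claudin-2, a tetraspan protein of the tight junction that forms pores for cations and water between epithelial cells. LHFPL3 encodes a member of a tetraspan family named for a lipoma fusion partner. Other members of that family are part of the mechanotransduction channel of hair cells and of GABA-A receptor complexes. PIGF encodes an endoplasmic reticulum protein needed to add ethanolamine phosphate to glycosylphosphatidylinositol (GPI), the lipid anchor of many surface proteins. RIPPLY1 encodes a transcriptional corepressor of somite formation that works with TLE proteins, and RHOQ encodes TC10, which is known for its part in insulin-stimulated glucose transporter traffic.

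CLDN2 (hg38 chromosome X, 106900164 to 106930861, plus strand) overlaps RIPPLY1 (106900063 to 106903331, minus strand) by 341 exon bases. These are 9.92% of the exon bases of CLDN2 and 28.8% of those of RIPPLY1. PIGF (chromosome 2, 46581274 to 46617112, minus strand) and RHOQ (46542728 to 46584688, plus strand) are convergent, and their last exons share 318 bases, 28.1% of PIGF and 7.001% of RHOQ. LHFPL3 (chromosome 7, 104328656 to 104908556, plus strand) shares no exon bases with an opposite-strand gene of the count table. In GENCODE 29 the 2370 bases of its last exon, 74.6% of its exon bases, lie in an intron of LHFPL3-AS2 on the minus strand. CLDN2 lies whole within the span of a minus-strand MORC4 transcript of GENCODE, and PIGF also shares 54 exon bases with CRIPT, which starts next to it in the other direction. All 5 genes thus had an opposite-strand transcript over part of their exons, as did 53.5% of the 6803 genes tested. Such transcripts covered 100% of the exon bases of CLDN2, 91.5% of RIPPLY1, 88.4% of RHOQ, 74.6% of LHFPL3 and 40.7% of PIGF. Over 50% was covered in 18.8% of the genes tested.

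**Figure D1:**
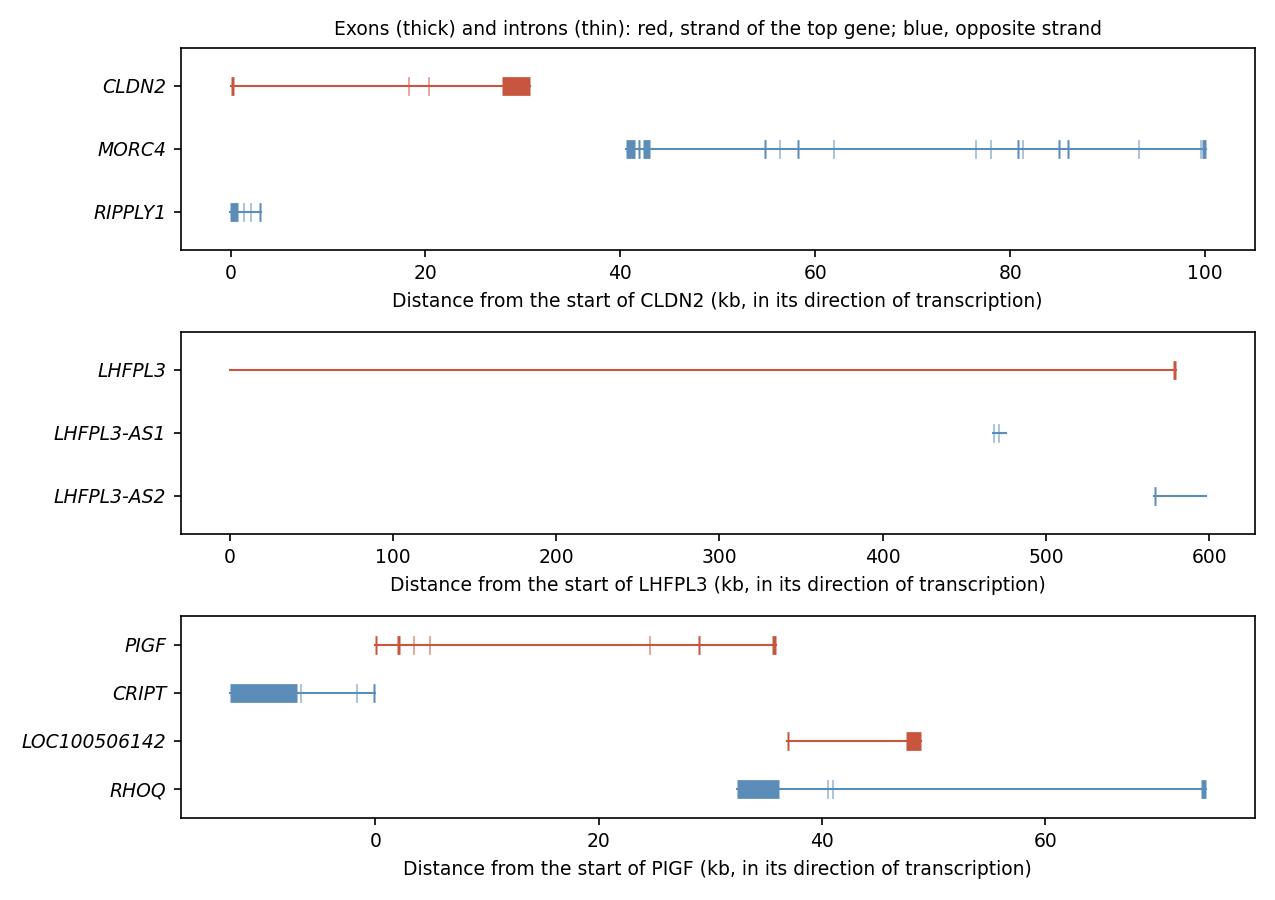
Exons (thick) and introns (thin) of the genes at the 3 loci, from the count table's gene models, by distance in kb from the start of CLDN2, LHFPL3 or PIGF in its direction of transcription. Red is the strand of the top gene and blue the opposite strand; RIPPLY1 covers the first exon of CLDN2, and the last exon of RHOQ covers the last exon of PIGF.

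Start regions are shown to compare the promoters of genes that were lowered together with siPRMT6-2. RefSeq (GRCh38.p14) had windows for 3 of the 5 genes, CLDN2 (with 2 starts), LHFPL3 and RIPPLY1. The window of the upstream CLDN2 start (chrX:106899914-106900163) is not printed because 101 of its bases are exon bases of RIPPLY1. The 250 bases before the downstream CLDN2 start (chrX:106918110-106918359, plus strand), before the LHFPL3 start (chr7:104328353-104328602, plus strand) and before the RIPPLY1 start (chrX:106903342-106903591, minus strand) read as follows, with CpG dinucleotides and matches to TATAAA in capitals.
CLDN2: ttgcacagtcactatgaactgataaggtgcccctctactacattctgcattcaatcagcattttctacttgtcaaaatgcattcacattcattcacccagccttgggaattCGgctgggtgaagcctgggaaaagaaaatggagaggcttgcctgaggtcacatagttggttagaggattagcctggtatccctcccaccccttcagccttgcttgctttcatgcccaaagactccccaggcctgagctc
LHFPL3: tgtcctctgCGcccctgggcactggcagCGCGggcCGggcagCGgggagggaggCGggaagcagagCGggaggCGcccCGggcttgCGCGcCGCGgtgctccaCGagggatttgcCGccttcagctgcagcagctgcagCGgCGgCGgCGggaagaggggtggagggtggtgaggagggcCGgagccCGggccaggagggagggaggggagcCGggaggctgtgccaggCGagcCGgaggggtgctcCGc
RIPPLY1: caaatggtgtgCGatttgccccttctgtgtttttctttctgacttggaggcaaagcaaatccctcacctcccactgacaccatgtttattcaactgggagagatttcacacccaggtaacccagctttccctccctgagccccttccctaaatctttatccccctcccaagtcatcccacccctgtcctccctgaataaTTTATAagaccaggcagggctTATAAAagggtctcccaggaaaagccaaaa

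The windows of the lowered genes differed in kind. The LHFPL3 window held 25 CpG dinucleotides and 77.2% G and C, and the CLDN2 window 1 CpG and 48.8%, against medians of 11 CpG and 58.0% over 35116 windows. TATAAA, searched on both strands, matched the RIPPLY1 window 2 times and neither of the other windows shown, and it is found in 10.7% of all windows. The core of the interferon-stimulated response element, 2 copies of GAAA with any 2 bases between them, matched none of the 3 windows shown, nor the upstream CLDN2 window, on either strand and is found in 3.02% of all windows. CCAAT, on both strands, matched none of the 3 shown and is in 32.0% of all windows. The upstream CLDN2 window held 1 CCAAT match, 0 CpG and 46.0% G and C.

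The siRNA sequences are not given in the sources used here, so the PRMT6 transcript itself was compared with the transcripts of the 5 genes. The longest run of bases that the PRMT6 transcript (2616 bases, GENCODE 29) shares with each of them on the transcribed strand is shown, since siRNAs act by base pairing.
CLDN2: agccccttcaga
LHFPL3: gaccaggaggag
PIGF: cgcctgcgcgtg
RIPPLY1: gaagaggaagatg
RHOQ: gatttttaaaaat

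The runs were 12 bases in CLDN2, LHFPL3 and PIGF and 13 bases in RIPPLY1 and RHOQ. Runs at least as long were found in 63.3%, 48.2% and 33.9% of tested genes with transcripts within 10% of the length of CLDN2, LHFPL3 and PIGF. They were found in 11.1% and 25.3% of such genes for RIPPLY1 and RHOQ. These runs need not lie at a site that either siRNA pairs with, and whether such pairing bears on the counts was not tested. Pairing with mismatches or through a seed alone was not examined. The transcripts compared were shorter than the counted exons for LHFPL3 (1852 against 3176 bases) and RHOQ (2975 against 4542), among others. Part of the counted exons was thus not compared.

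CLDN2 had 0 counts in siPRMT6-2 (interval 0 to 3.69), 26 in siPRMT6-1 (17.0 to 38.1) and 36 in siNC (25.2 to 49.8). Of the 3 lowered genes it was the one with no count left in siPRMT6-2, while the intervals of siPRMT6-1 and siNC overlapped. With a floor of 3 counts in place of its 0, siPRMT6-2 was 10.3-fold lower than siNC and 7.72-fold lower than siPRMT6-1. The exact intervals of these CPM ratios, 0 to 0.126 against siNC and 0 to 0.171 against siPRMT6-1, are wider than that floor and allow smaller folds. The CPM ratio of siPRMT6-1 to siNC was 0.752 (0.436 to 1.28), a difference not detectable at this depth. RIPPLY1 had 0 counts in all 3 libraries, which allows up to 3 counts in each. Nothing can therefore be said of whether RIPPLY1 moved with CLDN2, although it shares exon bases with it. All exon bases of CLDN2 lie under opposite-strand transcripts of MORC4 or RIPPLY1. Should the strand setting be the opposite of the kit's, reads from these could be counted for CLDN2, so its counts are uncertain.

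LHFPL3 had 4 counts in siPRMT6-2 (1.09 to 10.2), 40 in siPRMT6-1 (28.6 to 54.5) and 59 in siNC (44.9 to 76.1). The siPRMT6-2 library again lay below the other two, whose intervals overlapped. The CPM ratio of siPRMT6-2 to siNC was 0.0793 (0.0209 to 0.214) and that of siPRMT6-2 to siPRMT6-1 was 0.112 (0.0292 to 0.311). With siPRMT6-1 the ratio to siNC was 0.706 (0.460 to 1.07). Since LHFPL3 shares no exon bases with an opposite-strand gene of the table, its counts hold no reads from the exons of such a partner. Its last exon lies in an intron of LHFPL3-AS2, however. Should the strand setting be the opposite of the kit's, reads from that intron could be counted for LHFPL3, so its counts are uncertain too.

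PIGF had 12 counts in siPRMT6-2 (6.20 to 21.0), 86 in siPRMT6-1 (68.8 to 106) and 83 in siNC (66.1 to 103). Its level with siPRMT6-1 was that of siNC to within counting error, with a CPM ratio of 1.08 (0.788 to 1.48). The CPM ratio of siPRMT6-2 was 0.169 to siNC (0.0840 to 0.311) and 0.157 to siPRMT6-1 (0.0780 to 0.288). These ratios chose CLDN2, LHFPL3 and PIGF and are a description with no test.

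RHOQ, the convergent neighbour of PIGF, kept most of its counts in siPRMT6-2. It had 60 counts in siPRMT6-2 (45.8 to 77.2), 60 in siPRMT6-1 (45.8 to 77.2) and 92 in siNC (74.2 to 113). Both knockdown libraries had the same count, below that of siNC. The CPM ratio to siNC was 0.762 with siPRMT6-2 (0.541 to 1.07) and 0.679 with siPRMT6-1 (0.482 to 0.9498), and the ratio between the siRNAs was 1.12 (0.772 to 1.63).

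The counts of PIGF and RHOQ did not move in step across the libraries. There were 0.200 counts of PIGF per count of RHOQ in siPRMT6-2, 1.43 in siPRMT6-1 and 0.902 in siNC. The odds ratio of PIGF to RHOQ, which does not depend on how libraries are scaled, was 0.223 for siPRMT6-2 against siNC (exact conditional interval 0.102 to 0.455) and 0.141 for siPRMT6-2 against siPRMT6-1 (0.0633 to 0.292). For siPRMT6-1 against siNC it was 1.59 (0.996 to 2.54). PIGF thus held fewer counts beside its overlapping neighbour in siPRMT6-2 than in the other two libraries. PIGF was chosen for its drop, so this too is a description of single libraries.

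**Figure D2:**
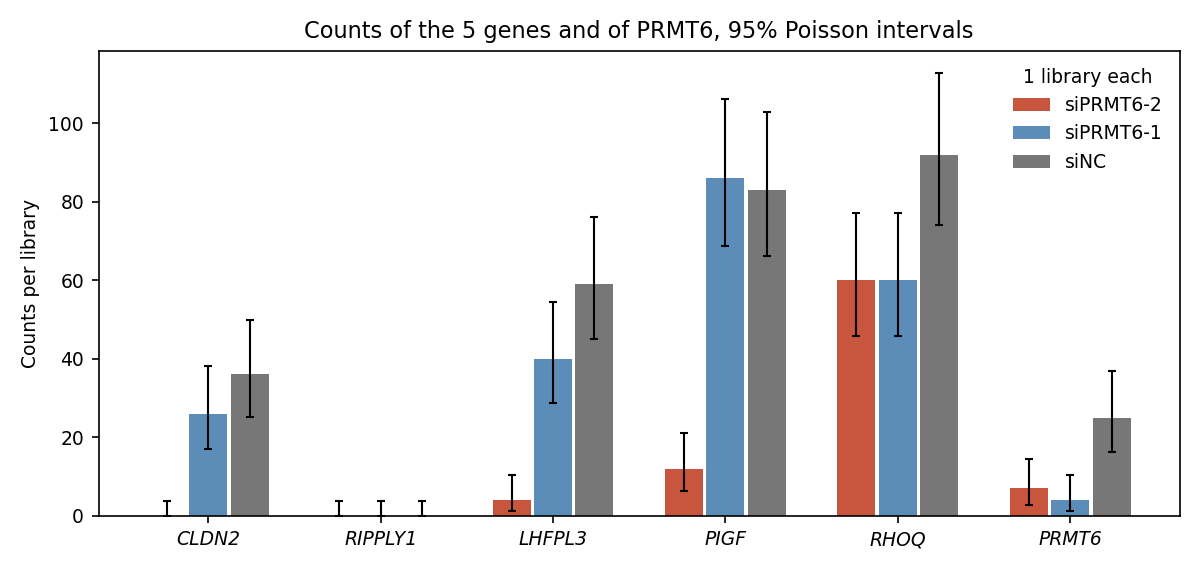
Counts per library (y axis) of the 5 genes and of PRMT6 in siPRMT6-2, siPRMT6-1 and siNC, 1 library each, with 95% exact Poisson intervals. In siPRMT6-2 CLDN2, LHFPL3 and PIGF stand at 0, 4 and 12 counts, RHOQ stands at 60 with both siRNAs, and RIPPLY1 is at 0 throughout.

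Per kb of exon, the order of the levels differed between the libraries. In siNC PIGF had 190 CPM per kb (151 to 235), RHOQ 52.5 (42.3 to 64.4), LHFPL3 48.2 (36.7 to 62.1), CLDN2 27.1 (19.0 to 37.6) and RIPPLY1 0 (up to 8.06). RHOQ and LHFPL3, next to each other in this order, had overlapping intervals, and the interval of LHFPL3 only just reached that of CLDN2. In siPRMT6-2 RHOQ had 40.02 CPM per kb (30.5 to 51.5), PIGF 32.1 (16.6 to 56.1), LHFPL3 3.82 (1.04 to 9.77) and CLDN2 0 (up to 3.25), so PIGF no longer stood above RHOQ. In siPRMT6-1 the order was that of siNC, with PIGF at 205 (164 to 253), RHOQ at 35.6 (27.2 to 45.9), LHFPL3 at 34.0 (24.3 to 46.3) and CLDN2 at 20.4 (13.3 to 29.9).

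Of 2542 tested genes with at least 30 counts in the higher library, 3 or 0.118% were at least 4-fold lower with siPRMT6-2 than with siNC, and 0 of 2559 (0.0%) with siPRMT6-1. On the log2 CPM scale (prior count 2) the differences from siNC with siPRMT6-2 were −4.16 for CLDN2, −3.17 for LHFPL3 and −2.40 for PIGF, the nearest to the limit of −2 from inside. Nearest from outside came STAB1, which encodes a scavenger receptor, at −1.77 with 18 counts in siPRMT6-2, 100 in siPRMT6-1 and 77 in siNC. It was followed by PAFAH1B2 at −1.64, ST7L at −1.63, and NT5DC2 and ADORA1 at −1.61. Between siPRMT6-2 and siPRMT6-1, 9 of 2524 genes (0.357%) were at least 4-fold lower, LHFPL3 and PIGF among them. CLDN2 fell short of the count minimum there with 26 counts.

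The genes most like each lowered gene were found by the distance between pairs of log2 differences from siNC, 1 for each siRNA. This took in 3 libraries and 2749 other genes. LHFPL3 was nearest to CLDN2 (distance 1.00) and PIGF nearest to LHFPL3 (0.97). The next gene for both was PAFAH1B2, which encodes a catalytic subunit of platelet-activating factor acetylhydrolase, with 10 counts in siPRMT6-2, 31 in siPRMT6-1 and 41 in siNC. It lay at 2.52 from CLDN2 and 1.53 from LHFPL3. Nearest to PIGF were STAB1 (0.70), OGFOD2 (0.80) and PAFAH1B2 (0.87). OGFOD2 had 5 counts in siPRMT6-2, 34 in siPRMT6-1 and 24 in siNC. The differences behind these distances are those that chose CLDN2, LHFPL3 and PIGF, so their nearness to each other is a description only. The place of CLDN2, with 0 counts in siPRMT6-2, also depends on the prior count.

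**Figure D3:**
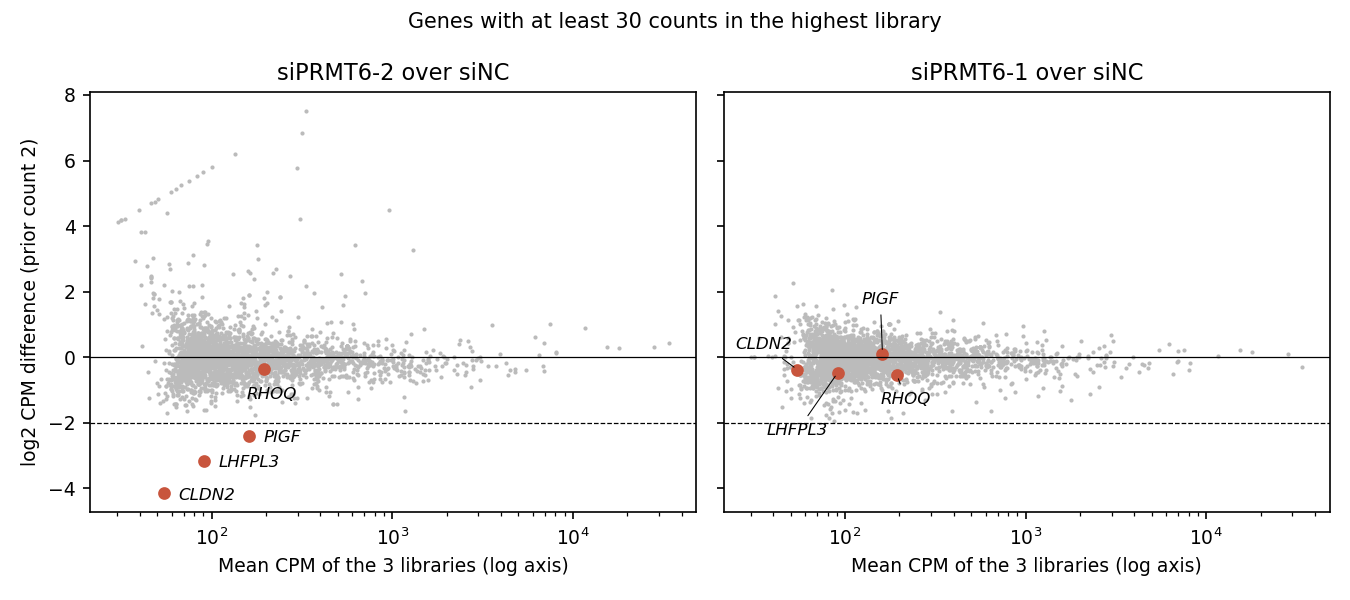
log2 CPM difference from siNC (prior count 2, y axis) against the mean CPM of the 3 libraries (log x axis) for genes with at least 30 counts in the highest library, with siPRMT6-2 on the left and siPRMT6-1 on the right. CLDN2, LHFPL3 and PIGF lie under the dashed line at −2 with siPRMT6-2 and among the other genes with siPRMT6-1, and RHOQ lies among the other genes with both.

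Taken over both siRNAs, none of the 5 genes passed a test. In the edgeR quasi-likelihood test of PRMT6 knockdown against siNC, 0 of 6803 genes (0.0%) were called at an adjusted p under 0.05, and 186 had an unadjusted p under 0.05. DESeq2 called 0 genes, with 13 at an unadjusted p under 0.05. The log2 fold change was −1.36 (SE 0.912) for CLDN2, −1.32 (SE 0.720) for LHFPL3, −0.67 (SE 0.685) for PIGF and −0.47 (SE 0.431) for RHOQ, each with an edgeR adjusted p of 1.00. RIPPLY1 did not pass the filter on low counts. The spread in this fit is that between the 2 siRNAs, and the siPRMT6-2 values in it are those that chose CLDN2, LHFPL3 and PIGF.

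Outside the 5 genes, none around CLDN2 and none within 100 kb of any locus had at least 10 counts. Whether neighbours fell could therefore be looked at only farther from LHFPL3 and PIGF. There no gene with that minimum was 4-fold lower with siPRMT6-2 by its ratio, though the interval of EPAS1 takes in such a drop. Within 500 kb of the 5 genes, 7 other genes had at least 10 counts in the highest library, and 1 of the 7 was at least 2-fold lower with siPRMT6-2, where 5.63% of all 6951 genes with that minimum were. With siPRMT6-1 it was also 1 of 7, where 4.56% of all genes were. The gene was EPAS1, which encodes the hypoxia-inducible factor HIF-2alpha and lies 156 kb from RHOQ. It had 4 counts in siPRMT6-2, 6 in siPRMT6-1 and 15 in siNC, and its ratios to siNC were 0.312 (0.0753 to 0.979) with siPRMT6-2 and 0.416 (0.132 to 1.14) with siPRMT6-1, where the interval takes in no difference.

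On the other side of PIGF, MCFD2, which encodes a cargo receptor subunit of the secretory pathway, had 86 counts in siPRMT6-2, 95 in siPRMT6-1 and 84 in siNC. TTC7A, which encodes a scaffold of phosphatidylinositol 4-kinase, had 33, 41 and 41 counts in the same order. Both stayed within counting error of siNC with both siRNAs. CRIPT, which starts beside PIGF on the plus strand, had 0 counts in siPRMT6-2, 2 in siPRMT6-1 and 0 in siNC, while PIGF had 83 in siNC. LOC100506142, which lies downstream of PIGF on the same strand and within RHOQ, had 2 counts in siPRMT6-2, 5 in siPRMT6-1 and 8 in siNC, with a ratio of siPRMT6-2 to siNC of 0.292 (0.0302 to 1.46). That interval takes in both the ratio of PIGF and no difference.

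Around LHFPL3, KMT2E, which encodes a chromatin protein of the MLL family, had 48 counts in siPRMT6-2, 86 in siPRMT6-1 and 67 in siNC, and its ratio of siPRMT6-2 to siNC was 0.838 (0.566 to 1.23). RELN, which encodes the secreted glycoprotein reelin, had 16, 39 and 30 counts in the same order, with a ratio of 0.623 (0.317 to 1.18). The splicing factor kinase gene SRPK2 had 18, 12 and 13 counts and KMT2E-AS1 12, 13 and 6. LHFPL3-AS2, which spans the last exon of LHFPL3 on the other strand, had 6, 5 and 7 counts, and its ratio of siPRMT6-2 to siNC was 1.00 (0.278 to 3.48). None of these genes came near the ratio of LHFPL3, and their intervals lay above its value.

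Around CLDN2 no gene reached 10 counts. MORC4, which encodes an ATPase and was named after its values were seen, lies 9.9 kb beyond CLDN2 on the minus strand in the table's gene models. It had 2 counts in siPRMT6-2, 5 in siPRMT6-1 and 9 in siNC, and its ratio of siPRMT6-2 to siNC was 0.260 (0.0273 to 1.26), which takes in both no difference and a 4-fold drop. Of the 8 genes within 500 kb of CLDN2 and RIPPLY1, 5 had 0 counts in all 3 libraries.

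**Figure D4:**
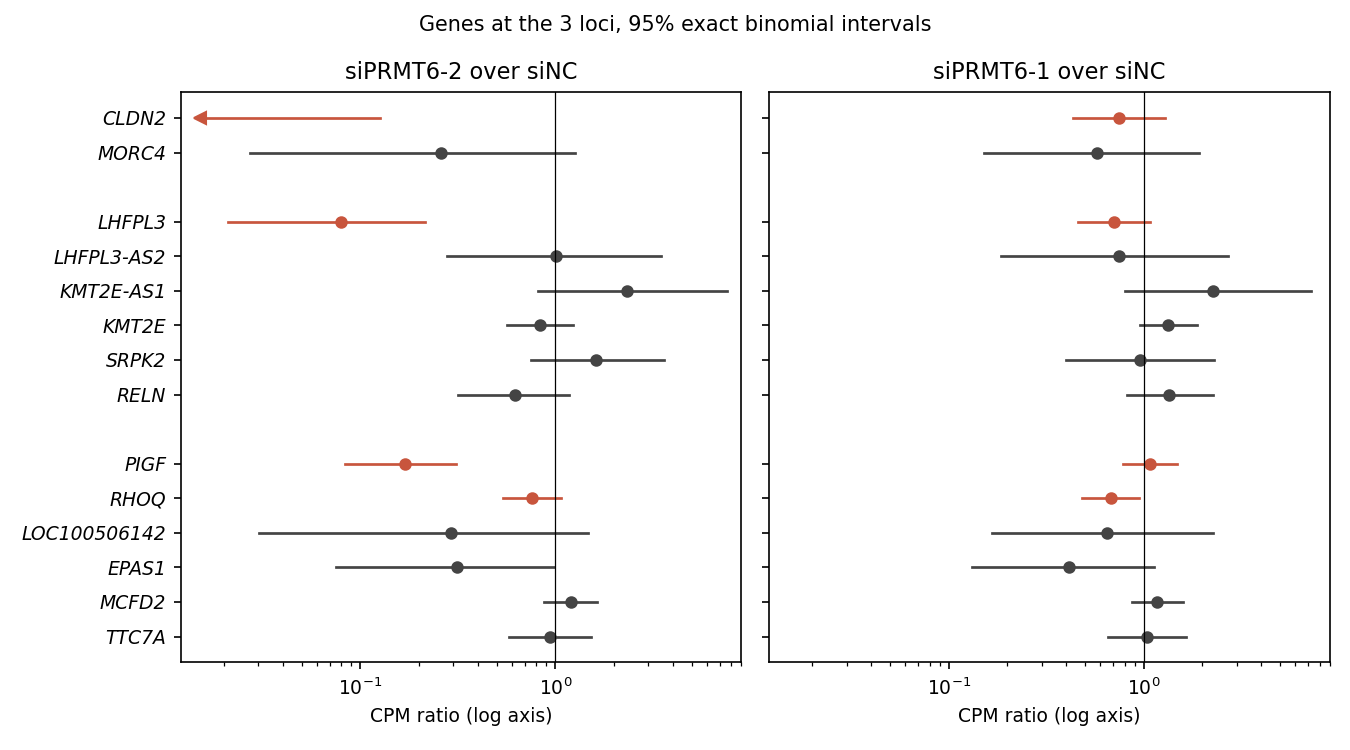
CPM ratio to siNC (log x axis) with siPRMT6-2 on the left and siPRMT6-1 on the right for genes at the CLDN2, LHFPL3 and PIGF loci, with 95% exact binomial intervals; red marks the genes chosen here and the arrow a count of 0. With siPRMT6-2 the intervals of CLDN2, LHFPL3 and PIGF end at 0.126, 0.214 and 0.311. RHOQ lies at 0.762, and the neighbours with at least 30 counts lie between 0.623 (RELN) and 1.20 (MCFD2). MORC4, LOC100506142 and EPAS1, with few counts and wide intervals, lie at 0.260, 0.292 and 0.312.

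Among other genes of the families and pathways of the 5, CLDND2 was the tested gene with the lowest CPM ratio of siPRMT6-2 to siNC, at few counts. Beside CLDN2, 5 of 25 other claudin genes passed the filter, 0 passed the quasi-likelihood test in either direction, and their median log2 difference was 0.01 with siPRMT6-2, that of all tested genes. Their summed counts were 138 in siPRMT6-2, 152 in siPRMT6-1 and 139 in siNC. CLDN1, which seals the junction, had 25, 24 and 29 counts in this order, CLDN16, a claudin of renal magnesium handling, 23, 29 and 14, and CLDN22 17, 23 and 35. CLDND2, which encodes a claudin domain protein, had 2, 5 and 12 counts, with a ratio of siPRMT6-2 to siNC of 0.195 (0.0212 to 0.875), and was 1 of the 5 to be at least 2-fold lower with siPRMT6-2, where 5.38% of all tested genes were. Of 23 other tight junction genes 11 were tested and 0 passed the test, with a median of −0.07 with siPRMT6-2. TJP1, the scaffold ZO-1, had 20 counts in siPRMT6-2, 26 in siPRMT6-1 and 36 in siNC, and LSR, a tricellular junction receptor, had 54, 52 and 53.

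The LHFPL family was mostly undetected at this depth. Beside LHFPL3 the count table held 5 members, of which LHFPL1, LHFPL5 and LHFP had 0 counts throughout and LHFPL4 0 counts in siPRMT6-2, 1 in siPRMT6-1 and 0 in siNC, and LHFPL2 had 13 counts in siPRMT6-2, 3 in siPRMT6-1 and 12 in siNC. LHFPL2 was thus low with siPRMT6-1, where LHFPL3 was not, with a ratio of siPRMT6-1 to siNC of 0.260 (0.0471 to 0.964) and of siPRMT6-2 to siNC of 1.27 (0.533 to 3.04). It was the 1 member tested beside LHFPL3, and it did not pass the quasi-likelihood test.

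GPI anchor synthesis beyond PIGF held its summed counts. Of 28 other genes 9 passed the filter. Of these, 0 passed the quasi-likelihood test, as did 0 of all 6803 genes tested. At least 2-fold lower with siPRMT6-2 were 0 of the 9, where 5.38% of all tested genes were, so few or none would be looked for among 9. The summed counts of the 28 genes were 271 in siPRMT6-2, 318 in siPRMT6-1 and 319 in siNC. The sum ratio of siPRMT6-2 to siNC was 0.993 (0.842 to 1.17). PIGB, a mannosyltransferase of the pathway, had 78 counts in siPRMT6-2, 73 in siPRMT6-1 and 78 in siNC. The transamidase subunit genes PIGS and GPAA1 had 48, 48 and 52 and 34, 59 and 56 counts in this order. PIGO and PIGG, whose products add ethanolamine phosphate with PIGF, had 9, 11 and 6 and 5, 8 and 4 counts, and were named after their values were seen.

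Of 12 genes of RHOQ partners 8 were tested and 0 passed the quasi-likelihood test, with medians of 0.23 with siPRMT6-2 and −0.74 with siPRMT6-1. EXOC7, which encodes an exocyst subunit, had 54 counts in siPRMT6-2, 75 in siPRMT6-1 and 58 in siNC, and the adaptor gene CRK had 35, 14 and 32. With siPRMT6-1, 3 of the 8 were at least 2-fold lower, where 4.38% of all tested genes were.

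RIPPLY2 and RIPPLY3 had 0 counts in all libraries, as RIPPLY1 did. The corepressor genes TLE3 and TLE1 had 40 counts each in siPRMT6-2, 59 and 23 in siPRMT6-1, and 45 and 27 in siNC. Neither passed the quasi-likelihood test.

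**Figure D5:**
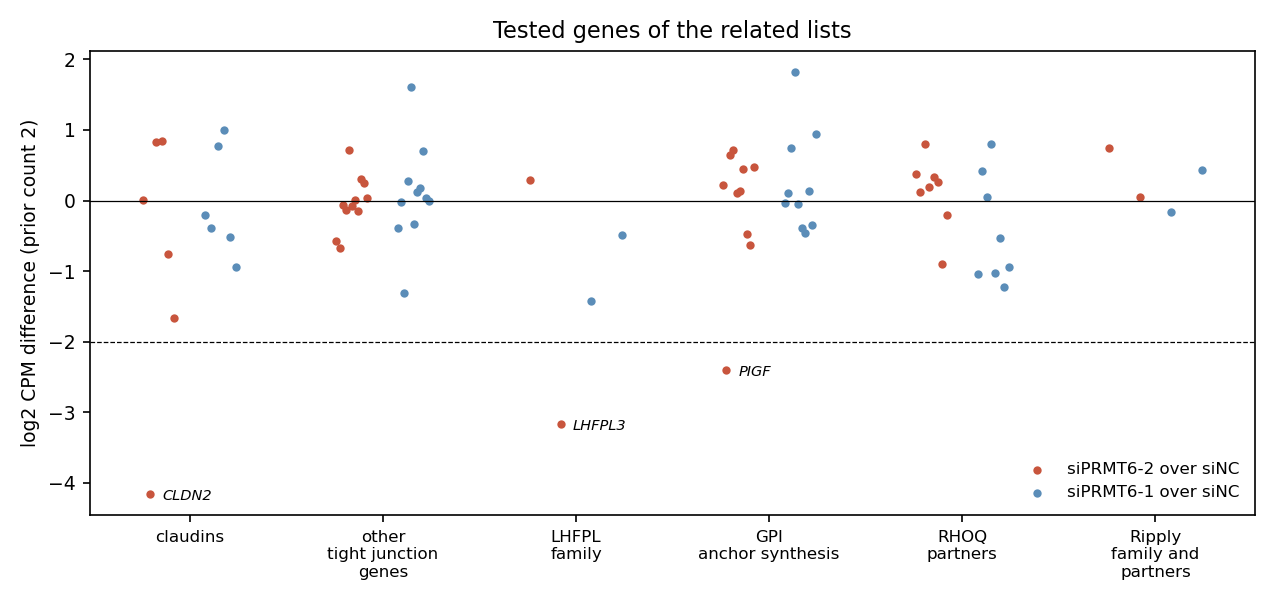
log2 CPM difference from siNC (prior count 2, y axis) of the tested genes of 6 related lists (x axis), red for siPRMT6-2 and blue for siPRMT6-1. CLDN2, LHFPL3 and PIGF stand below −2 with siPRMT6-2, and with that siRNA all other genes shown lie between −1.66 and 0.85.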

How the data were processed

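Total RNA of HEC1B cells was sequenced in 3 libraries. Per the labels' protocols, libraries were made with a stranded total RNA kit for low input. Per the submitters' processing notes, reads were aligned with STAR 2.7.8a to hg38 and counted with featureCounts 2.0.10. Per the file headers, the version was 2.0.1, exons were grouped by gene name, pairs were counted with strand setting 1, reads in overlapping genes were added to each, and the aligned files were marked as deduplicated by UMI. The deposited values are whole-number counts with no normalization. Columns were matched to samples by the labels; siPRMT6-1 is si2 and siPRMT6-2 is si3 in the descriptions.

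From these counts, filterByExpr (minimum count 10, minimum total 15) kept 6803 genes, 4 of the 5 described. The quasi-likelihood test of edgeR 4.0.16 (R 4.3.3, TMM) set both knockdown libraries against siNC, two-sided, with Benjamini-Hochberg adjustment over all genes. It had 1 residual degree of freedom and assumes that the lone control varies like the knockdown libraries. DESeq2 1.42.0 was an alternative. For each siRNA alone, folds were taken between CPM values on the log2 scale after adding a prior count of 2, with no test. Exon overlaps came from the deposited gene models, opposite-strand transcripts and transcript sequences from GENCODE 29 (GRCh38, the build of the files), and start regions from RefSeq GRCh38.p14. Genes were named by a rule: the 5 genes, their overlapping genes, neighbours within 500 kb with at least 10 counts, the 3 nearest patterns, the 5 genes outside the limit, and the highest and most lowered genes of related lists. One list of related genes is not reported here. The members and lists were chosen with earlier results of these data known.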

Additional observations from a re-analysis of the deposited data

How the results depend on the processing

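All 36 CPM ratios of CLDN2, LHFPL3, PIGF and RHOQ kept within their intervals with DESeq2 size factors, total counts, or TMM without interferon-stimulated genes. RIPPLY1 has no ratio. The check is weak, because other scalings move a ratio little beside these wide intervals. For PIGF the ratio of siPRMT6-2 to siNC was 0.169 (0.0840 to 0.311), and 0.164 with total counts. The siPRMT6-2 ratios of CLDN2 are 0 under any scaling. All 17 log2 fold changes over both siRNAs under other tests, scalings and filters kept their direction and stayed short of the threshold; the lowest adjusted p was 0.764, for LHFPL3 in the older edgeR fit. That fit called 32 genes, all higher in knockdown, against 0; the cause was not tested. With 1 library left per arm there is no test. The log2 difference ranged from −4.16 to −0.39 for CLDN2, −3.17 to −0.48 for LHFPL3, −2.40 to 0.11 for PIGF and −0.54 to −0.38 for RHOQ. The first 3 were chosen as low with siPRMT6-2 and not so with siPRMT6-1. Their wide ranges follow from that choice. With a minimum of 10 counts, 22 of 6361 tested genes were at least 4-fold lower with siPRMT6-2. With the minimum of 30 counts it was 1, LHFPL3, without genes that share opposite-strand exon bases. Neighbours at least 2-fold lower with siPRMT6-2 were 0 of 0 within 100 kb, 2 of 13 within 1000 kb and 0 of 4 with at least 30 counts. No paired analysis was possible because the groups share fewer than 2 replicate numbers. Depth limits every gene under about 10 counts, RIPPLY1 and MORC4 among them.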

Other observations

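The 7 genes other than LHFPL3 and PIGF that were at least 4-fold lower with siPRMT6-2 than with siPRMT6-1, at 30 or more counts, all had more counts in siPRMT6-1 than in siNC as well as fewer in siPRMT6-2. These genes were named after their values were seen. TNFRSF10D, a decoy receptor gene of the death ligand TRAIL, had 8 counts in siPRMT6-2, 70 in siPRMT6-1 and 16 in siNC, and the small Ro-associated RNA gene RNY1 had 11, 86 and 30. NT5DC2 had 8, 60 and 33 counts in this order, OGFOD2 5, 34 and 24, STAB1 18, 100 and 77, LRRC37A 19, 95 and 68, and DCDC2, which encodes a doublecortin-domain protein, 7, 38 and 26. LRRC37A belongs to a family of near-identical genes, so its counts are uncertain. These are single libraries with no replicate check.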
